A study of Mus musculus with 4 samples.

Results

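*Hand2* lies in a long stretch with few protein-coding genes, and the Meis-binding sites of that stretch in mouse limb buds are described here one by one. Members were the rows of the forelimb (FL) and hindlimb (HL) peak lists whose summit fell in chr8:59000000-60100000 of the mm9 build, from 799.8 kb upstream to 300.2 kb downstream of the *Hand2* start at position 59799780 on the plus strand. Rows with the same start and end were taken as 1 region, which gave 22 FL regions of the 21338 in the FL list and 16 HL regions of the 16987 in the HL list. Merging the FL and HL regions that overlapped left 28 sites. The rule used positions and no measured height.

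Chromatin came from C57BL/6 wild-type embryos at E10.5 (36 somites), with about 500 FLs and about 500 HLs fixed for the experiment. It was precipitated with a pair of anti-Meis antibodies used together, 1 that recognised Meis1a and Meis2a,c and 1 that recognised all Meis1 isoforms, so Meis1 and Meis2 cannot be told apart. FLs and HLs were each represented by 1 precipitated library and 1 library of input chromatin, sequenced from one end over 50 bp, and the peak lists of the precipitated libraries were analysed. No limb had a replicate, so FL and HL values are those of single libraries and no test between limbs was made. Buds were pooled whole, and binding in fewer cells and weaker binding in each cell cannot be told apart.

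*Hand2* encodes a basic helix-loop-helix transcription factor of the posterior limb bud mesenchyme, also needed in the heart and the branchial arches. In the bud it opposes Gli3, which acts anteriorly, and it is needed for *Shh* to be switched on in the zone of polarizing activity. Meis1 and Meis2 are homeodomain proteins of the TALE class that mark the proximal limb, bind the core TGACA and often bind DNA together with Pbx and Hox proteins. Limb genes of this kind are commonly driven by enhancers that lie far from the promoter.

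The sequences that place the sites come from the GRCm38 build, since they were matched there and no mm9 sequence was used. The study used CRISPR-Cas9 to delete a *Hand2* limb enhancer that, by its account, overlaps binding sites of Meis and Hoxd13. It reported that *Hand2* expression was absent from the limbs of homozygous embryos and lowered in some heterozygous ones. The pair of guides is shown first because they bound the segment discussed below, with the PAM in capitals. Each had 1 exact match in the genome, at chr8:56984935-56984957 on the minus strand for guide 1 and at chr8:56982028-56982050 on the plus strand for guide 2.

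Guide 1: ccactgggtgatccatagtaTGG

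Guide 2: tattagagcctcataatgcaTGG

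With a cut 3 bp from the PAM, the guides enclosed chr8:56982045-56984940 of GRCm38, a segment of 2896 bp that ran from 338.9 to 336.0 kb upstream of *Hand2*. It held 1901 of the 1920 bp (99%) of mm1689 (chr8:56983040-56984959), an element of the VISTA enhancer collection annotated by RefSeq as active in the limb in 8 of 10 transgenic embryos. Positions in GRCm38 and mm9 were set side by side only as distances from the *Hand2* start in each build. The distance from *Hand2* to the start of *Fbxo8*, at the upstream end of the landscape, was 769893 bp in both builds, and that to *Galnt7*, at the downstream end, differed by 1 bp. Differences inside these intervals that cancel out were not checked, so gaps of a few bp between a summit and a motif are approximate.

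The next stretch is the part of mm1689 where TGACA was densest. It covers chr8:56984129-56984256 of GRCm38 on the plus strand, 336.85 to 336.73 kb upstream of *Hand2*, and its capitals mark 3 copies of TGACA and 1 copy of the Hox13-like TTTTATT, which is on the minus strand and so reads AATAAAA.

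mm1689 stretch: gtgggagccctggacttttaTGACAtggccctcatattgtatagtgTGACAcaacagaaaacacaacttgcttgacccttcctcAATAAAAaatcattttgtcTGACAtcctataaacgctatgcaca

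Copies of the longer TGACAG are given with 15 bases on each side, in capitals and read on the plus strand, where a minus-strand copy is written CTGTCA. The first is the single copy of the segment between the guides (chr8:56982577-56982612), which lies outside mm1689. The next is the copy of mm1283 (chr8:57334386-57334421), an element 12.1 to 13.9 kb downstream of the *Hand2* start, that fell at the distance of an HL summit.

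Segment copy: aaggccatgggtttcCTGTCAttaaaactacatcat

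mm1283 copy: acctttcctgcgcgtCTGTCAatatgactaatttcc

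The landscape was dominated by 1 site in both limbs. It lay 358.3 kb upstream of *Hand2* (chr8:59440977-59441753 in FLs and chr8:59440995-59441736 in HLs, mm9), outside every gene of the GRCm38 annotation and outside the VISTA elements. Fold, as used throughout, is the ratio of ChIP signal at the summit to the local background that the authors' peak caller took from the input. At this site it was 20.4 in FLs, rank 5 of 21338, and 12.5 in HLs, rank 23 of 16987. The q values, p values corrected by the peak caller over all candidates, were 2.22e-51 and 6.22e-25. The region measured 777 bp in FLs and 742 bp in HLs, where the median length over each list was 166 and 132 bp.

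It was also the only region of the landscape, in either limb, with more than 1 summit. In FLs the summits stood 358.59 and 358.27 kb upstream, 323 bp apart, with folds of 14.9 and 20.4. In HLs they stood 358.61 and 358.26 kb upstream, 347 bp apart, with folds of 11.9 and 12.5. The summit closer to *Hand2* was thus the higher in both limbs, 1.37 times the other in FLs and 1.06 times in HLs. Over the whole lists, 1311 FL and 705 HL regions had several summits.

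**Figure D1:**
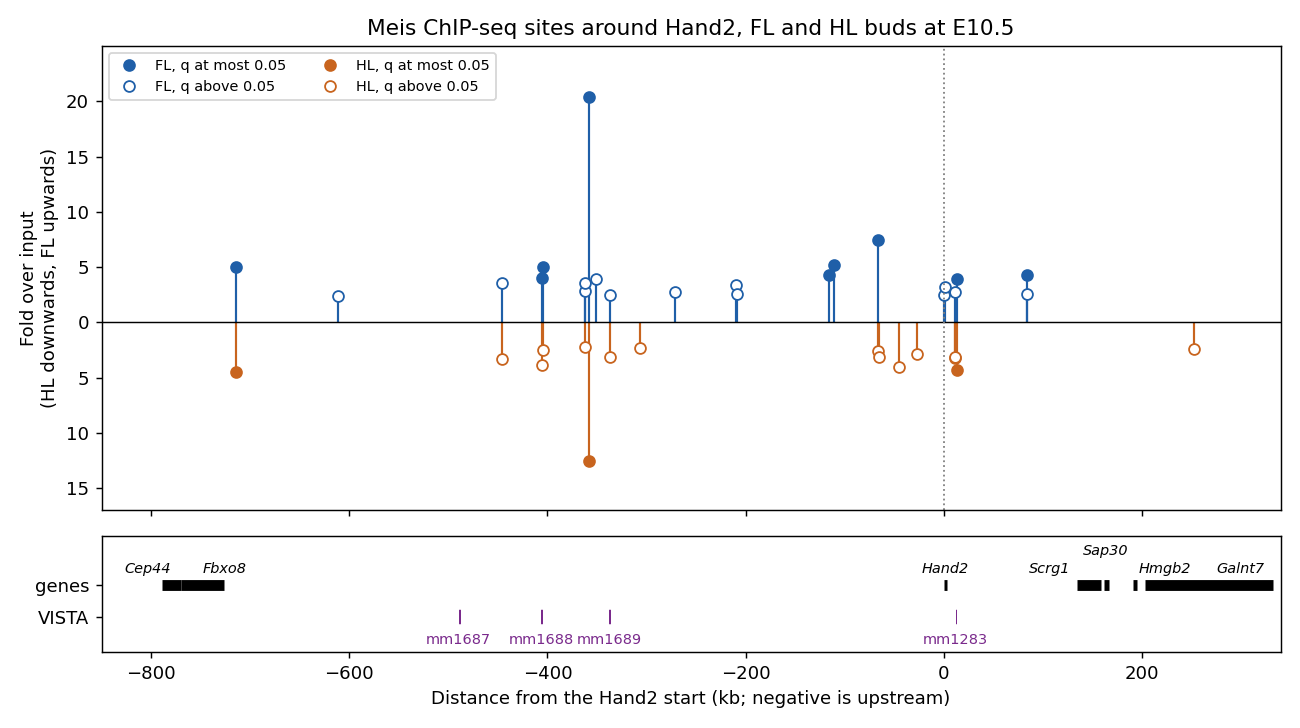
Fold over input of every Meis region around *Hand2* (vertical axis, FL upwards, HL downwards) against the distance of its summit from the *Hand2* start in kb, with filled points for q at most 0.05. The lower panel gives protein-coding genes and VISTA elements at their GRCm38 distances. The site 358.3 kb upstream stands at 20.4 in FLs and 12.5 in HLs, and no other site exceeds 7.48.

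Between 100 and 800 kb upstream, where the annotation has only *Cep44*, which encodes a centrosomal protein, and *Fbxo8*, which encodes an F-box protein, as protein-coding genes, there were 16 sites. Of these, 7 were found in both limbs, 8 only in the FL list and 1 only in the HL list. Their median fold was 3.59 over 15 FL regions and 3.22 over 8 HL regions. A site missing from a list was below the caller's cutoff in that library, which is not a measurement of no binding.

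The outermost site was 714.5 kb upstream, in the intergenic stretch between *Fbxo8* and *Hand2*. Its fold was 4.98 in FLs (q = 3.73e-05) and 4.46 in HLs (q = 0.0152), with summits 23 bp apart. It was 1 of the 3 sites that passed q at most 0.05 in both limbs. The next site, 611.4 kb upstream, was in the FL list alone with a fold of 2.37 (q = 1). The following 165.5 kb, up to the site 445.9 kb upstream, held no site in either limb, and this interval included the VISTA limb element mm1687 (489.7 to 487.2 kb upstream, limb activity in 6 of 9 embryos).

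From 445.9 to 336.8 kb upstream the sites came close together. These 109.1 kb, 9.91% of the window, held 8 FL regions (36.4% of its FL regions) and 6 HL regions (37.5%), and all 6 HL regions overlapped an FL region. The stretch was picked out after its sites were seen, and its shares are given as a description. At 445.9 kb, in an intron of the long non-coding RNA gene *Gm33501*, the fold was 3.59 in FLs and 3.29 in HLs, with q values of 0.499 and 0.725.

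A pair of sites at 405.5 and 404.8 kb upstream fell within mm1688, a VISTA element 406.4 to 404.2 kb upstream with limb activity in 5 of 8 embryos. At 405.5 kb the limbs were close, with folds of 3.97 in FLs (q = 0.0497) and 3.85 in HLs (q = 0.0944) and summits 4 bp apart. At 404.8 kb they were not, with folds of 5.01 in FLs (q = 8.81e-04) and 2.54 in HLs (q = 1), a log2 ratio of 0.98. mm1688 held 3 copies of TGACAG on either strand, where 21.1% of tiles of its length along the chromosome held at least as many, and 9 copies of TGACA, where 13.2% did. At 405.5 kb the nearest TGACA was 77 bp from the FL summit and 81 bp from the HL summit, and 50.3% and 52.0% of the positions of mm1688 lay as near to one. At 404.8 kb it was 188 and 165 bp away, with 83.1% and 77.9% of positions as near. Every summit in mm1688 was 279 to 381 bp from the nearest TGACAG.

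Closer to the highest site, an FL region 362.2 kb upstream (fold 2.88) was overlapped by an HL region (fold 2.22), with q = 1 in both limbs. The adjacent FL region at 362.0 kb, with a fold of 3.59 and q = 0.499, had no HL region over it. On the other flank, the FL region at 350.5 kb had a fold of 3.94 and q = 0.105, and its nearest HL summit was that of the highest site, 7.7 kb away. None of these neighbours had q at most 0.05.

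The enhancer mm1689 and the segment between the guides held 1 site in each limb, and in neither limb was its q at most 0.05. The FL region (chr8:59462918-59463097, mm9) had its summit 336.8 kb upstream with a fold of 2.49 and q = 1, rank 15848 of 21338. The overlapping HL region (chr8:59462807-59462991) had its summit 79 bp away with a fold of 3.15 and q = 0.925, rank 4442 of 16987. It was the shared site with the lowest log2 ratio of FL to HL fold, at -0.34. The highest site of the landscape lay 19.3 kb outside the segment and 20.3 kb from mm1689.

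By distance from *Hand2*, and if the builds do not differ in between, the FL summit in mm1689 fell 1 bp from the middle copy of TGACA in the stretch printed above, and 1.46% of the positions of mm1689 lay as near to a copy. The HL summit was 48 bp from the nearest copy, where 14.8% of positions were as near. The summits of the limbs stood 79 bp apart at this site, so a gap of 1 bp is finer than their agreement. mm1689 held 4 copies of TGACA and none of TGACAG, and the whole segment held 7 and 1. Tiles of the segment's length held a median of 7 and 2, and 86.3% of them held at least 1 TGACAG, so the segment was not rich in either. A match of letters is a description and not a binding site.

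**Figure D2:**
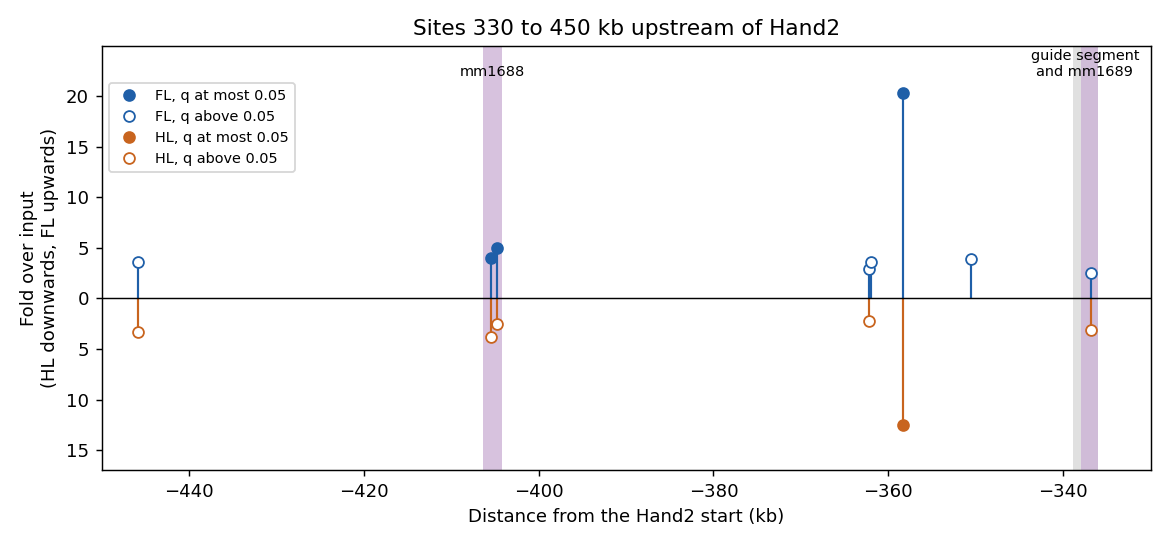
Fold over input (vertical axis, FL upwards, HL downwards) against distance from the *Hand2* start in kb for the sites 330 to 450 kb upstream, with mm1688, mm1689 and the guide segment shaded and filled points for q at most 0.05. The segment holds 1 site, at folds of 2.49 and 3.15, while the site with folds of 20.4 and 12.5 stands outside it.

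Nearer to the gene the FL list went on without the HL list. FL regions stood at 271.4 kb (fold 2.70, q = 1), 209.3 kb (fold 3.41, q = 0.499) and 208.6 kb (fold 2.55, q = 1), and the only HL region between mm1689 and 100 kb upstream was at 306.9 kb (fold 2.29, q = 1). Closer still were a pair of FL regions with low q values. The region 116.3 kb upstream had a fold of 4.29 (q = 2.73e-05) and that at 111.2 kb a fold of 5.21 (q = 8.82e-05). The nearest HL summits were 50.0 and 44.9 kb away from them, so that no HL region was narrowly missed by the overlap. Over the whole FL list, the 1229 regions with q at most 0.05 and no HL region had a median fold of 4.40, between the folds of this pair.

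Within 100 kb of the start there were 11 sites, with 7 regions in each limb and 3 sites in common. The highest was 66.2 kb upstream, with a fold of 7.48 in FLs (q = 1.27e-09, rank 454) and 2.60 in HLs (q = 1, rank 10948). Its log2 ratio of 1.53 was the largest among the shared sites of the landscape. In HLs a separate region 65.5 kb upstream (fold 3.09, q = 1) had its summit 0.8 kb from the FL summit and did not overlap it. The HL list alone also had regions at 45.0 kb (fold 4.03, q = 0.0806), its highest within 100 kb upstream, and at 27.4 kb (fold 2.88, q = 1).

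At the gene itself binding was weak. No region covered the *Hand2* start or the long non-coding RNA gene *Hand2os1*, which runs in the opposite direction from 0.1 to 16.7 kb upstream. The nearest FL region was 0.6 kb downstream of the start, within an exon of *Hand2*, with a fold of 2.49 (q = 1), and another at 1.4 kb, also in an exon, had a fold of 3.18 (q = 0.815). HLs had no region in the gene, and the nearest one was 10.9 kb downstream.

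That HL region, with a fold of 3.27, was overlapped by an FL region at 11.0 kb with a fold of 2.71, and both had q = 1. They lay over an exon of the long non-coding RNA gene *Gm34030*. The HL list had a further region at 11.3 kb (fold 3.16, q = 1). At 13.4 to 13.5 kb downstream, also over *Gm34030* and within a gene for another long non-coding RNA, *Hdnr*, was the third site to pass q at most 0.05 in both limbs. Its fold was 3.95 in FLs (q = 0.00488) and 4.35 in HLs (q = 0.00255), so that HLs were slightly the higher.

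This site lay in mm1283, which the VISTA collection lists as active in the branchial arch in 9 of 10 embryos. By distance, under the same condition, the HL summit fell on the copy of TGACAG printed above, and the FL summit was 28 bp from it. Of the positions of mm1283, 0.68% lay on or as near to such a copy as the HL summit and 7.03% as near as the FL summit. For the shorter TGACA these shares were 2.38% and 20.7%. mm1283 held 2 copies of TGACAG, and 34.9% of tiles of its length held at least as many. It held 6 copies of TGACA, where 29.7% did.

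Farther downstream, both regions at about 84 kb belonged to FLs. That at 83.9 kb had a fold of 2.53 (q = 1) and that at 84.5 kb, in an intron of the long non-coding RNA gene *Gm34099*, a fold of 4.30 over 490 bp (q = 2.81e-06), with the nearest HL summit 71.1 kb away. From there to 252.5 kb, a gap of 168.0 kb with *Scrg1*, *Sap30* and *Hmgb2*, which encode a stimulator of chondrogenesis, a subunit of the Sin3 corepressor complex and a chromatin protein, neither list had a region. The last site was an HL region at 252.5 kb (fold 2.45, q = 1) within *Galnt7*, which encodes a glycosyltransferase of the Golgi. The nearest FL regions outside the window, none of them close to its ends, lay 3594.2 kb upstream (fold 2.71) and 495.3 kb downstream (fold 3.59), and the nearest HL regions 976.9 kb upstream (fold 3.80) and 388.6 kb downstream (fold 3.34). All 4 had q above 0.05.

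More FL than HL regions of the landscape had low q values. Of the FL regions around *Hand2*, 9 of 22 had q at most 0.05 (40.9%, 95% Wilson interval 23.3 to 61.3), against a background of 17.4% over the whole FL list. Of the HL regions it was 3 of 16 (18.8%, interval 6.59 to 43.0), against 10.1% over the HL list, which lies within the interval. The intervals cover counting error only, and neighbouring regions are not independent. The 9 FL regions were those at 714.5, 405.5, 404.8, 358.3, 116.3, 111.2 and 66.2 kb upstream and at 13.5 and 84.5 kb downstream, and the 3 HL regions those at 714.5 and 358.3 kb upstream and 13.4 kb downstream.

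A q of 0.05 was not reached at the same p in both lists. The largest p that gave it was 1.01e-05 in FLs and 3.73e-06 in HLs, and the HL regions at 405.5 and 45.0 kb upstream, with p of 8.31e-06 and 6.42e-06, fell between these values. At a common limit of p at most 0.0005 the limbs differed less, with 14 of 22 FL regions (63.6%, background 31.7%) and 10 of 16 HL regions (62.5%, background 37.0%). Both shares were then above their backgrounds. Their intervals, 43.0 to 80.3 and 38.6 to 81.5, again cover counting error only, for regions that are not independent. The difference from the background was not tested.

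The median fold was 3.59 over the 22 FL regions (95% interval from order statistics 2.70 to 4.30), against 2.78 over the FL list, and 3.15 over the 16 HL regions (2.54 to 4.03), against 2.78 over the HL list. Each interval included the median of its own list. Outside the highest site and that at 66.2 kb, FL folds ran from 2.37 to 5.21.

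**Figure D3:**
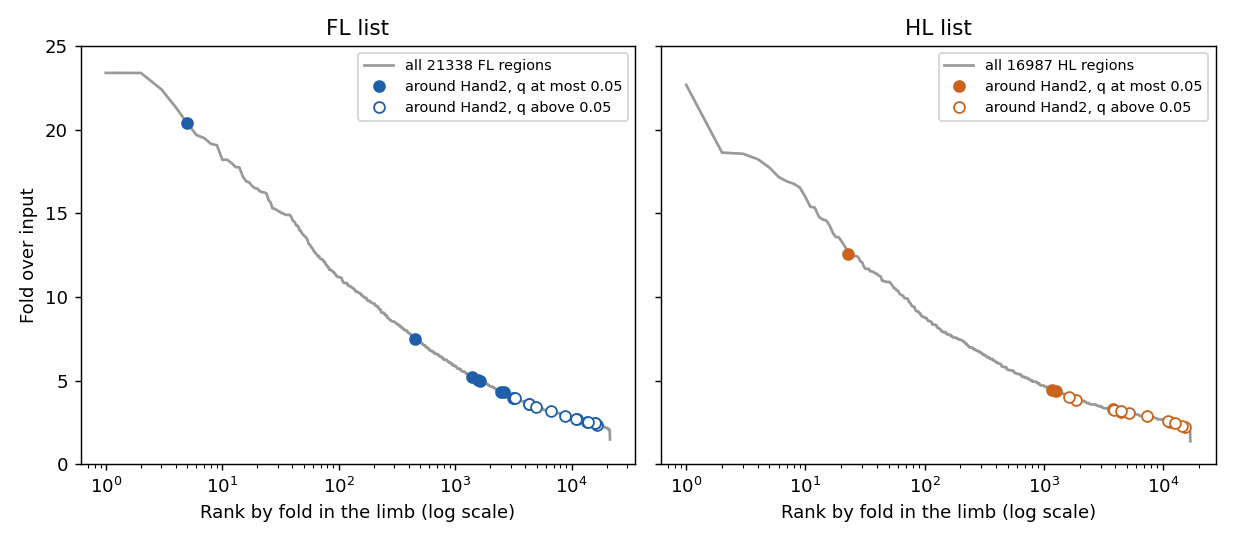
Fold over input against rank by fold (log scale) for all FL regions (left) and all HL regions (right) as lines, with the regions around *Hand2* as points, filled for q at most 0.05. The highest FL region is rank 5 and the highest HL region rank 23, and the others start at rank 454 in FLs and at rank 1166 in HLs.

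The same places were often found in both limbs. HL regions overlapped 10 of the 22 FL regions (45.5%, interval 26.9 to 65.3, background 22.6%), and FL regions overlapped 10 of the 16 HL regions (62.5%, interval 38.6 to 81.5, background 29.0%). Overlap went with height over the lists, however, and among regions with q at most 0.05 the landscape was like the rest. Of its FL regions below that limit 6 of 9 were overlapped (66.7%, background 67.0%), and of its HL regions 3 of 3 (background 89.3%). The summits of the 10 shared sites were 4 to 79 bp apart with a median of 23 bp, against a median of 30 bp over the 4813 shared FL regions.

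The folds of the shared sites lay on both sides of equality. FLs were the higher at 7 of 10 sites (background 62.1%), and the median log2 ratio of FL to HL fold was 0.14 (95% interval -0.27 to 0.98), against 0.17 over all shared regions. The FL fold was at least 2 times the HL fold at 1 site, that at 66.2 kb upstream (background 7.40%). The highest site had a log2 ratio of 0.70, and HLs were the higher at 336.8 kb upstream and at 11.0 and 13.5 kb downstream, with ratios of -0.34, -0.27 and -0.14. The other ratios were 0.98 at 404.8 kb, 0.38 at 362.2 kb, 0.16 at 714.5 kb, 0.12 at 445.9 kb and 0.04 at 405.5 kb.

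**Figure D4:**
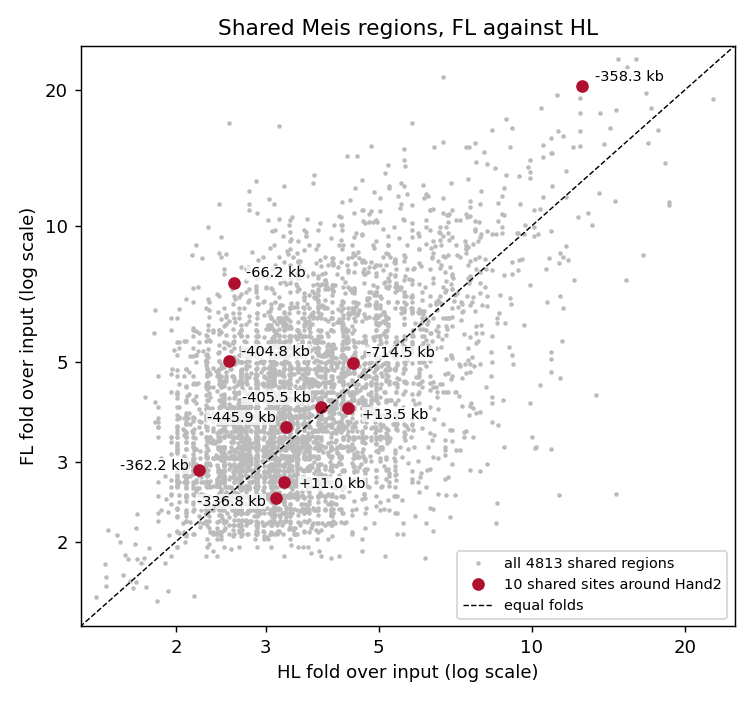
FL fold against HL fold over input (both log scales) for all 4813 shared regions (grey) and the 10 shared sites around *Hand2* (red, labelled by distance from the start). The dashed line marks equal folds. The site at 66.2 kb upstream lies farthest above it (7.48 against 2.60), and 3 sites lie below it.

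The window held more regions than most stretches of its length. Over 1.10 Mb it held 20 FL regions per Mb. Of 2382 tiles of the same length along the chromosomes, with a median of 6 FL regions, 9.61% held at least as many as the 22 here, and 13.4% held at least as many HL regions as the 16 here, with a median of 4. For regions with q at most 0.05, 1.76% of tiles held as many as the 9 in FLs and 7.05% as many as the 3 in HLs. The tiles differ in gene content and mappability and are given as a description, with no test.

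The landscape was also compared with the same window, 800 kb upstream to 300 kb downstream along the strand, around 1988 genes whose mm9 start follows from the study's distances between peaks and genes. Only part of that list was used here, so these are some of the genes near Meis peaks, and windows of neighbouring genes overlap. *Hand2* had 9 FL regions with q at most 0.05, where the median gene had 2 and 5.43% of genes had as many. In HLs it had 3, the median gene had 1 and 19.3% had as many. The highest FL fold in its window, 20.4, was matched or exceeded around 0.453% of the genes, counting those that share the region.

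Of 21 genes of limb patterning and signalling listed for comparison, 14 had a start. FL counts were higher than that of *Hand2* for 4 of them and equal for 1. The T-box genes *Tbx18* and *Tbx2* had 12 each, the homeobox genes *Irx3* and *Irx5*, which are neighbours and share their regions, 11 each, and *Alx4*, a homeobox gene of the anterior bud, 9. The other 9 were lower. Among them, *Grem1*, which encodes a BMP antagonist, *Fgf10*, the mesenchymal signal for outgrowth, and *Etv4*, a target of FGF signals, had 6 each. So did *Pitx1*, which specifies hindlimb identity, and *Tbx5*, which activates *Fgf10* at forelimb initiation. *Isl1*, which acts upstream of *Hand2* in the hindlimb field, had 5, *Cdon*, a receptor of hedgehog signals, 4, *Tbx3* 4 and *Bmp4* 2.

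In HLs the order was different, with 7 regions around *Tbx3*, *Tbx5*, *Irx3* and *Irx5* and 3 around *Hand2*. By the height of the highest FL region *Hand2*, at 20.4, was above all 14, of which *Fgf10* came next with 13.1, followed by *Tbx2* with 12.1 and *Tbx5* with 11.6. *Isl1* reached 7.48 and *Grem1* 5.36.

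**Figure D5:**
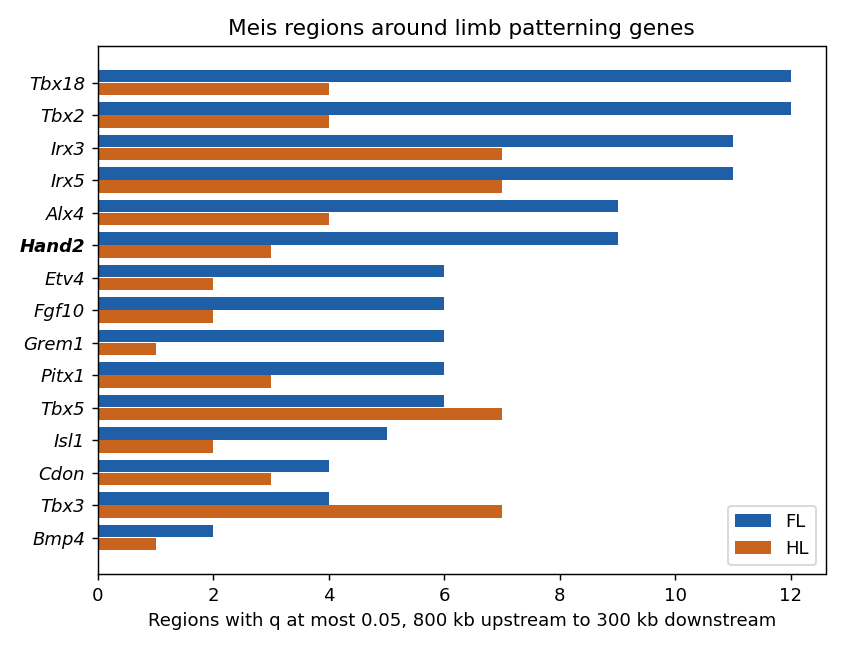
Number of regions with q at most 0.05 (horizontal axis) in FLs and HLs from 800 kb upstream to 300 kb downstream of *Hand2* and of 14 other limb genes (vertical axis). *Hand2* has 9 FL and 3 HL regions, below *Tbx18* and *Tbx2* with 12 FL regions each.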

How the data were processed

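The authors' deposited files are MACS2 peak lists in mm9, each ChIP library against the input of its limb. The labels also name CASAVA 1.8.2, cutadapt 1.3, BWA and SAMtools. The deposited values are a fold (ratio of ChIP signal to local background), −log10 p and −log10 q for each summit; the deposited score was not analysed. The lists give no read depth, which limits what passes a cutoff. Both lists extend to weak regions, with folds from 1.48 in FLs and 1.37 in HLs.

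Rows with the same start and end were 1 region, which took the largest fold and the smallest p and q among its summits. Regions sharing at least 1 bp were taken as overlapping. Motifs were searched exactly on both strands of GRCm38, so each TGACAG also counts as TGACA. Tiles do not overlap. Gene models and VISTA elements were those of RefSeq (GRCm38.p6), and strands came from GENCODE. Overlap counting was tested on simulated data. Scripts ran in Python 3.11.15 with matplotlib 3.10.9, scipy 1.17.1, pandas 2.3.3 and numpy 2.4.6.

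Named regions were those with q at most 0.05 in either limb, the highest in each 100-kb class of distance in each limb, the extremes of the log2 ratio, and those nearest to *Hand2* and to the guide segment; the remaining regions were added afterwards so that all are given. The members and lists were chosen with earlier results of these data known. Gene starts in mm9 came from a shortened copy of the study's list of distances between peaks and genes. It gave none for *Gli3*, *Shh*, *Ptch1*, *Gli1*, *Hoxd13*, *Hoxd9* and *Etv5*, which were not analysed here.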

Additional observations from a re-analysis of the deposited data

How the results depend on the processing

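Of 30 alternative values, 16 stayed close to those reported (counts, ranks and densities within 1.5 times, medians within their interval). At p at most 0.0005 the FL and HL regions numbered 14 and 10 in place of 9 and 3, and with a fold of at least 5 beside q at most 0.05 they numbered 4 and 1. The 10 shared sites fell to 6 with q at most 0.05 in FLs and to 5 with p at most 0.0005 in both limbs. The 16 sites 100 to 800 kb upstream became 25 when summits of both limbs were counted apart, and the FL density became 8.18 per Mb with q at most 0.05. Ranked by q, the highest FL site was number 12 in place of 5. Within 100 kb on both sides *Hand2* had 3 FL regions with q at most 0.05 (median gene 0, as many around 7.44% of genes), and in the wide window it had 14 with p at most 0.0005 (median gene 4, as many around 4.98%). The segment held 7 copies of TGACA, and 0 copies of TGACAG within 500 bp of its middle, in place of 1 TGACAG. The median log2 ratio of the shared sites turned from 0.14 to -0.03 once the median of all shared regions was taken off. No paired analysis was possible because each limb had 1 library, and for the same reason no replicate could be left out. Neither list gives the reads behind a region. A site absent from a list was below the caller's cutoff in that library, and the reason was not tested.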

Other observations

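The segment between the guides held 8 copies of TTTTATT, overlapping ones included, where tiles of its length held a median of 2 and 1.45% held at least as many. Its GC content was 35.2%, where the median tile had 42.0% and 6.83% of tiles had less. Of the 8 copies, 3 lay within mm1689, where 19.9% of tiles of that length held at least as many. The octamers TGATTTAT and TGATTGAT, read by Hox and Pbx proteins together, had 0 copies in the segment. Only 16.4% and 11.5% of tiles of its length held at least 1, so 0 copies was the usual count. The element mm1687, which no Meis region touched, had 1 copy of TGATTTAT, where 14.5% of tiles of its length held at least 1.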
